A study of Mus musculus with 8 samples.

Results

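The genes described here are 10 transcription factors linked to memory and stemness in CD8 T cells: Tcf7, Lef1, Id3, Myb, Eomes, Bach2, Foxo1, Foxp1, Satb1 and Klf2. They were chosen by symbol, and all 10 were found among the 13204 genes of an expression table of mouse T cells. OT-I cells are CD8 T cells with a transgenic receptor for an ovalbumin peptide. Recipient mice were given 1000000 of them, and an ovalbumin-expressing skin graft followed 24 hours later. On day 14 after grafting, spleens were pooled by 3, and 1000 cells per library were sorted as CD44hi, Thy1.1+ and CD8+. The sort parted cells that carried FcgRIIB, the inhibitory receptor for IgG, on their surface (FcgRIIB+, 4 libraries) from cells that did not (FcgRIIB-, 4 libraries). Both groups came from the same 4 pools of spleens, so a pool gives a pair of libraries, and both carried the same transgenic receptor and saw the same graft. Neither strain nor age of the recipients is stated in the sources used. The comparison asks how the transcripts of these factors differ between FcgRIIB+ and FcgRIIB- effector cells.

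As background, TCF-1 (the product of Tcf7) and LEF-1 are related DNA-binding proteins that maintain naive and memory T cells and the self-renewing cells among responders. FOXO1 switches on genes of T cell trafficking and survival, and KLF2 holds T cells in circulation. ID3 blocks the E proteins and marks precursors of memory cells, while MYB and EOMES favour long-lived CD8 cells. BACH2, FOXP1 and SATB1 are known for restraining effector differentiation or keeping T cells quiescent.

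Depth, recovered from the values themselves, ran from 3056500 to 22011500 reads per library, and pools 1 and 2 were deeper than pools 3 and 4. Transcripts of the genes that define the sorted cells were present in all 8 libraries. Cd3e lay between 190.6 and 372.5 RPKM in FcgRIIB+ and between 430.4 and 688.2 RPKM in FcgRIIB- libraries. RPKM are read counts scaled to exon length and library depth. Cd8a lay between 153.1 and 239.5 RPKM against 165.3 and 330.4 RPKM, and Cd8b1 between 403.8 and 959.4 RPKM against 1042 and 1986 RPKM. Cd44 went the other way, at 20.6 to 61.5 RPKM against 12.7 to 43.3 RPKM, and was higher in the FcgRIIB+ library of every pool. Thy1 varied widely in both groups, from 8.48 to 105.6 RPKM against 20.6 to 89.4 RPKM. Genes of other blood cells were present as well and differed between the groups. Of 10 conventional dendritic cell markers 9 were called higher in FcgRIIB+ libraries by limma, and their summed level was 584.9 to 1213 RPKM in FcgRIIB+ and 25.6 to 83.1 RPKM in FcgRIIB- libraries, with Naaa and Cd209a the most abundant in FcgRIIB+ libraries and Itgax (22.2 RPKM on average) in FcgRIIB- libraries. With single libraries left out 7 to 10 of them were called. Of 10 macrophage markers 9 were called higher (6 to 10 with single libraries left out), with sums of 1895 to 2588 RPKM against 194.2 to 1272 RPKM, the highest FcgRIIB- value being that of pool 2, and with Lyz2 and C1qb the most abundant. The sum of 16 core T cell genes was 1699 to 3665 RPKM in FcgRIIB+ and 4769 to 7357 RPKM in FcgRIIB- libraries. With limma none of these 16 passed, although 9 were lower at unadjusted p values under 0.05 (voom, which models the reads recovered from the table, called 0), and 11 were lower with the pool as a block. Of 5 genes that define the sorted cells limma called none either (1 lower at unadjusted p values under 0.05, voom 0). B cell markers summed to 73.9 to 205.6 RPKM against 99.2 to 462.2 RPKM, with Cd79a and Cd79b the most abundant; limma called none of 8 tested (1 lower at unadjusted p under 0.05, voom 0). In limma 1 of 3 plasmacytoid dendritic cell markers, 1 of 4 natural killer cell markers and 2 of 6 basophil and mast cell markers were also called higher. With single libraries left out the plasmacytoid and natural killer counts were 0 to 1 and the basophil and mast cell count 1 to 5, and the last was 0 with voom and 6 with the block. None of 3 helper and regulatory T cell markers and none of 4 erythroid markers was called in limma (1 higher at unadjusted p under 0.05 in each list; 1 and 0 with voom). Mcpt8 and Fcer1a, of the basophil and mast cell list, were the only markers of these lists listed at 0 in any library.

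**Figure D1:**
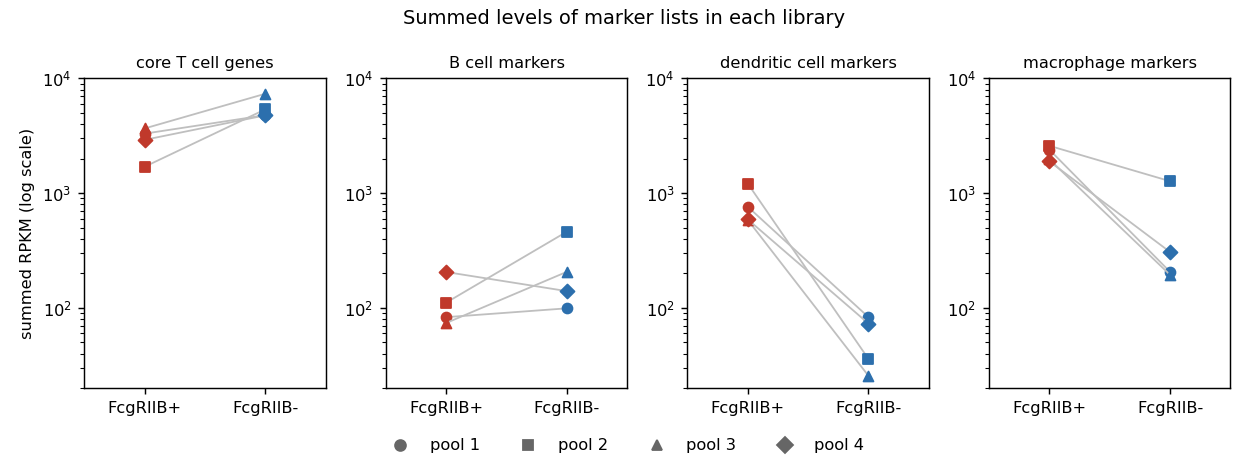
Summed RPKM (log axis) of 4 marker lists in the 8 libraries, FcgRIIB+ left and FcgRIIB- right, with a line joining the libraries of a pool. The core T cell sum was lower and the dendritic cell and macrophage sums were higher in the FcgRIIB+ library of each pool, and the FcgRIIB- library of pool 2 had the highest B cell sum (462.2 RPKM) and a macrophage sum of 1272 RPKM.

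Transcripts of 4 of the 10 factors fell in FcgRIIB+ libraries: Id3, Myb, Tcf7 and Eomes. On the RPKM + 1 scale Id3 was 3.97-fold lower, Myb 3.72-fold, Tcf7 2.72-fold and Eomes 2.36-fold. With the pool of spleens as a block Lef1, Foxo1 and Foxp1 were called lower too, at 2.29-fold, 1.85-fold and 1.82-fold. No factor was called higher in limma with or without the block (0 at unadjusted p under 0.05, voom 0). The background was 0.268% of 11946 tested genes called lower and 3.03% called higher by limma, and 3.85% lower and 7.22% higher with the block. For 8 of the 10 factors every FcgRIIB+ library lay below every FcgRIIB- library, a pattern held by 4.15% of tested genes, and none had the opposite pattern, held by 4.61%. All 10 lay lower in the FcgRIIB+ library of all 4 pools, as did 19.8% of tested genes.

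The size of these differences was close to that of the T cell transcripts in the same libraries. The median log2 fold change, FcgRIIB+ minus FcgRIIB-, was -1.04 over the 10 factors, -1.04 over the 16 core T cell genes and -0.11 over all genes tested. All 10 fold changes lay below 0 in limma and after rescaling to a common sum, to median ratios or by quantiles, whereas once libraries were scaled by their core T cell genes 5 of the 10 (Foxo1, Foxp1, Satb1, Bach2 and Klf2) lay above 0. Under that last scaling the all-gene median shifted by 1.07 and stood at 0.95, and relative to it the median of the factors was -0.93, as before. This last value could not change, because the scaling moves the log2 fold changes of all genes by the same amount. In bulk libraries fewer T cells and less RNA per T cell cannot be told apart. The part that cells other than T cells took in the differences was not tested.

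**Figure D2:**
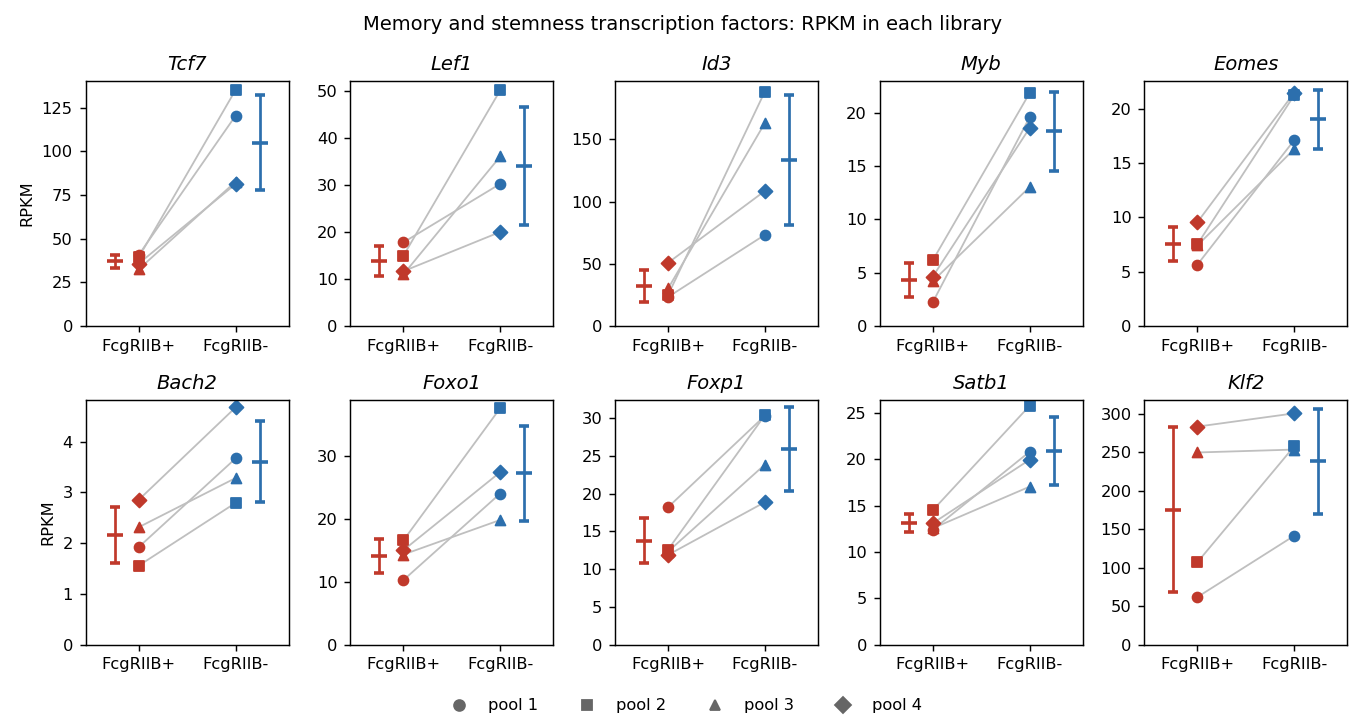
RPKM of the 10 factors in the 8 libraries, FcgRIIB+ left and FcgRIIB- right. Symbols mark the pool, grey lines join the libraries of a pool, and the bars beside the points are the mean ± SD (n = 4); each panel has its own axis from 0. The groups overlap for Bach2 and Klf2 and for none of the other 8 genes.

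**Figure D3:**
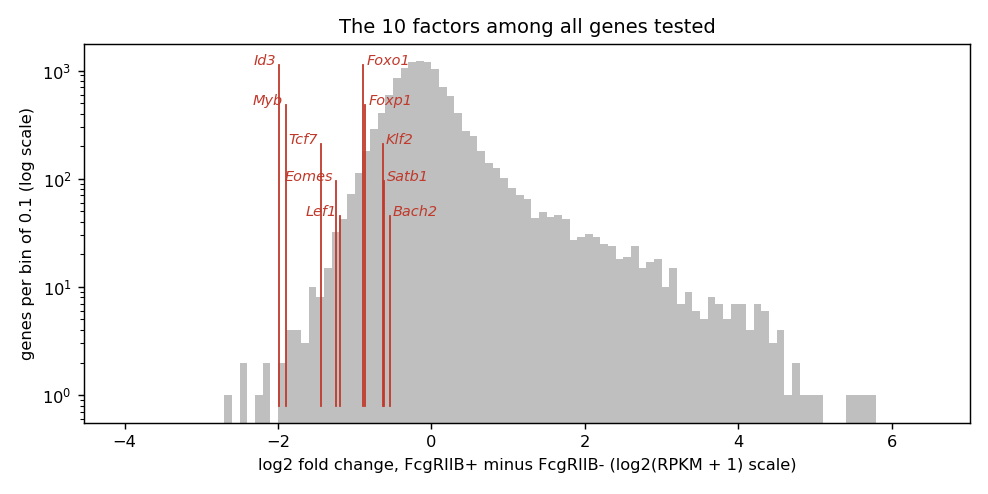
Number of the 11946 tested genes per bin of log2 fold change (log axis), FcgRIIB+ minus FcgRIIB-, with the 10 factors marked in red. The factors run from -1.99 (Id3) to -0.54 (Bach2), all on the side of genes lower in FcgRIIB+ libraries. After scaling to core T cell genes, not drawn here, 5 of them lay above 0.

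Promoters are shown for the called factors with a single RefSeq start site and for Klf2, whose partners were level in 2 pools. They are the 250 bases before the start, 5′ to 3′, from RefSeq on GRCm38.p6, and capitals mark matches to the motifs searched: Id3, chr4:136143572-136143821, plus strand; Myb, chr10:21160985-21161234, minus strand; Eomes, chr9:118477939-118478188, plus strand; Klf2, chr8:72318812-72319061, plus strand.
Id3: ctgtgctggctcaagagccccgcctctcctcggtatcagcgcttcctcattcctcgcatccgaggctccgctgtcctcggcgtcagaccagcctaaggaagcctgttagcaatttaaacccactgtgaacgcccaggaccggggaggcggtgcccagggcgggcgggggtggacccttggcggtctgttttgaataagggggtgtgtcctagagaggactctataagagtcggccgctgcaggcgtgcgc
Myb: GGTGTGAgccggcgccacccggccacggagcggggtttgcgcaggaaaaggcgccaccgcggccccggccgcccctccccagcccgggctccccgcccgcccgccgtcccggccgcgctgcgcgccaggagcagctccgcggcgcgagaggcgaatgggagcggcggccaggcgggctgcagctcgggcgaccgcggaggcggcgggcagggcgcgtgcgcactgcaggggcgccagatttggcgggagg
Eomes: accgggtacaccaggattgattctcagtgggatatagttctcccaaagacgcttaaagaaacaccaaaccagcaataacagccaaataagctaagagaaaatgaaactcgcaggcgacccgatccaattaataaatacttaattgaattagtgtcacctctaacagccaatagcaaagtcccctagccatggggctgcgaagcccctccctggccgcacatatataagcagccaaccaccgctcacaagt
Klf2: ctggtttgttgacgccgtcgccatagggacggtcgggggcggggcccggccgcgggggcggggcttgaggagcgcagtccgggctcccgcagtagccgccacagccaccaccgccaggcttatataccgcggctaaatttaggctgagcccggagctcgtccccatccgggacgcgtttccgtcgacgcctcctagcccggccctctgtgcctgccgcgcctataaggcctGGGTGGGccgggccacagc
The motifs were searched on both strands: CTTTGA for TCF and LEF, GTAAACA for forkhead factors, CANCTG for the E-box of E proteins, AACNGTT for MYB, TCACACC for T-box factors, TGANTCA for BACH and AP-1, and CCCACCC for KLF factors. Myb holds 1 T-box match, in 2.84% of the windows of tested genes, and Klf2 1 KLF match, in 18.5%. Id3 and Eomes hold no match to any of the 7. Over the 20 start sites that RefSeq gives for the 10 factors, TCF and LEF matches were in 3 windows (15% against 10.8% of the 12108 windows of tested genes) and E-boxes in 6 (30% against 38.5%). KLF matches were in 9 (45% against 18.5%), of which the first and second Lef1 windows overlap and hold the same match. These 9 windows belong to 5 of the 10 factors, Tcf7, Lef1, Foxp1, Satb1 and Klf2. Windows of 1 gene are not independent, and the share of tested genes with a match was not counted. A match says only that the letters are there.

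Id3 (Entrez 15903) had the most negative fold change of the 10 on the log2(RPKM + 1) scale, with Myb next, and the order of the pair turned with a pseudocount of 0.1 (-2.02 for Id3, -2.12 for Myb) and with voom (-2.07 and -2.17). This inhibitor has no DNA-binding domain and acts by pairing with E proteins. Its level was 23.3, 24.98, 30.1 and 50.8 RPKM in FcgRIIB+ libraries of pools 1 to 4, against 73.2, 188.3, 163.1 and 108.5 RPKM in FcgRIIB- libraries. The groups did not overlap, and the FcgRIIB+ library of pool 4 came nearest to the other group. The means were 32.3 ± 12.7 and 133.3 ± 52.1 RPKM (SD, n = 4 each), the log2 fold change was -1.99 (SE 0.41) and the limma adjusted p was 0.0187. Only 6 of the 11946 tested genes had a more negative fold change on the log2(RPKM + 1) scale. The call was lost without the FcgRIIB- library of pool 2 (limma adjusted p = 0.0648) or pool 3 (0.0897) and without the FcgRIIB+ library of pool 1 (0.0585) or pool 2 (0.0581).

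Myb (Entrez 17863), a regulator first known from blood progenitors that also sustains stem-like CD8 T cells, was called lower in every fit with 1 library left out. Its level was 2.23, 6.17, 4.20 and 4.64 RPKM in FcgRIIB+ libraries, against 19.6, 21.9, 13.04 and 18.6 RPKM in FcgRIIB- libraries of pools 1 to 4. The highest FcgRIIB+ value was less than the lowest FcgRIIB- value, and pool 1 showed the widest gap, 8.79-fold on the RPKM scale. Limma gave a log2 fold change of -1.89 (SE 0.32) with an adjusted p of 0.00631, and adjusted p values of 0.00837 to 0.0239 in the 8 fits that each lacked 1 library. Fewest reads lay behind Myb in the FcgRIIB+ library of pool 4, with 108.

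Tcf7 (Entrez 21414) and Lef1 (Entrez 16842) code for a pair of closely related factors that bind the same DNA motif and can partner with beta-catenin. Tcf7 was the more even of the pair among FcgRIIB+ libraries, at 40.7, 39.4, 32.5 and 35.7 RPKM, against 120.4, 135.1, 82.6 and 81.3 RPKM in FcgRIIB- libraries of pools 1 to 4. No library of one group reached the other. Limma put it at -1.44 on the log2 scale (SE 0.33, adjusted p = 0.0336). When single libraries were left out Tcf7 stayed called only without the FcgRIIB- library of pool 4 (0.0278), with adjusted p of 0.0648 to 0.119 without any of the other 7. The call was also lost after common-sum (0.174) and median-ratio (0.0923) scaling. Lef1 was at 17.8, 14.99, 11.01 and 11.7 RPKM in FcgRIIB+ and 30.3, 50.3, 36.1 and 20.1 RPKM in FcgRIIB- libraries. Its groups did not overlap either, but FcgRIIB- libraries were spread over a wider range. The log2 fold change of Lef1 was -1.19 (SE 0.34), which limma did not call (adjusted p = 0.108) and which passed with the pool as a block (adjusted p = 0.00202), without the FcgRIIB- library of pool 4 (0.0383), after quantile normalization (0.0308) and with library weights (0.0033). Per length Tcf7 exceeded Lef1 in all 8 libraries, by 2.28 to 3.06 times in FcgRIIB+ and 2.29 to 4.05 times in FcgRIIB- libraries, ranges that overlap.

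Eomes (Entrez 13813), a T-box factor of memory CD8 cells and natural killer cells, was at 5.66, 7.53, 7.43 and 9.57 RPKM in FcgRIIB+ and 17.1, 21.3, 16.3 and 21.5 RPKM in FcgRIIB- libraries. The groups were well apart, and in both groups pool 4 was the highest. The means were 7.55 ± 1.599 and 19.0 ± 2.72 RPKM (SD, n = 4 each), with a log2 fold change of -1.24 (SE 0.28, limma adjusted p = 0.0318). That call held without the FcgRIIB+ library of pool 4 (0.039) and was lost without any of the other 7 (0.053 to 0.103). It also missed the threshold after common-sum (0.128), median-ratio (0.0533) and quantile (0.0623) rescaling. Klri2, the natural killer cell marker called higher in limma, was at 9.07 RPKM in FcgRIIB+ and 1.98 RPKM in FcgRIIB- libraries (adjusted p = 0.0164). The other tested markers of that list, Ncr1, Klrb1c and Gzma, are named after their values were seen. They were at 5.06, 15.5 and 654.0 RPKM in FcgRIIB+ and 3.41, 11.6 and 564.4 RPKM in FcgRIIB- libraries and did not pass in limma. The part of natural killer cells in Eomes was not tested.

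Foxo1 (Entrez 56458) and Klf2 (Entrez 16598) belong to the same line of control, since FOXO1 is known to drive Klf2. Foxo1 was at 10.3, 16.6, 14.3 and 15.02 RPKM in FcgRIIB+ and 24.1, 37.7, 19.8 and 27.5 RPKM in FcgRIIB- libraries of pools 1 to 4. The groups did not overlap, and pool 3 had the smallest gap. On the log2 scale the difference was -0.89 (SE 0.31), with adjusted p of 0.213 in limma and 0.0159 with the pool as a block. Klf2 was the most abundant of the 10 in both groups, at 61.7, 107.0, 249.6 and 283.3 RPKM in FcgRIIB+ and 141.4, 257.7, 253.4 and 300.5 RPKM in FcgRIIB- libraries. In pools 1 and 2 the FcgRIIB+ library was well below its partner, and in pools 3 and 4 the partners were nearly level. On the RPKM scale the FcgRIIB- library exceeded its FcgRIIB+ partner 2.29-fold and 2.41-fold in pools 1 and 2, against 1.02-fold and 1.06-fold in pools 3 and 4. Klf2 had a log2 fold change of -0.64 (SE 0.53) and was called in neither fit (limma adjusted p = 0.794, and 0.173 with the block). The value was -0.22 without the FcgRIIB+ library of pool 1, -0.09 with library weights, and ranged down to -0.95 with single libraries left out. Within pools 1 and 2 alone the log2 fold change was -1.22 (adjusted p = 0.0649) and within pools 3 and 4 alone -0.05 (0.989), and the difference between these sets of pools was not tested.

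Foxp1 (Entrez 108655), a forkhead factor of quiescent T cells, was at 18.2, 12.6, 12.3 and 11.9 RPKM in FcgRIIB+ and 30.3, 30.4, 23.8 and 18.9 RPKM in FcgRIIB- libraries. The FcgRIIB+ library of pool 1 stood above the other 3 and just under the lowest FcgRIIB- library. Foxp1 differed by -0.86 on the log2 scale (SE 0.30), with adjusted p of 0.214 in limma and 0.0189 with the block. Satb1 (Entrez 20230), an organiser of chromatin loops in T cells, had a narrow FcgRIIB+ group, at 12.4, 14.5, 12.5 and 13.1 RPKM, against 20.8, 25.8, 17.03 and 19.9 RPKM in FcgRIIB- libraries. Its groups did not overlap, yet its log2 fold change of -0.62 (SE 0.28) passed in neither fit (limma adjusted p = 0.39, and 0.101 with the block). Bach2 (Entrez 12014), a repressor of effector genes, was the least abundant of the 10. It was at 1.92, 1.56, 2.31 and 2.85 RPKM in FcgRIIB+ and 3.67, 2.79, 3.28 and 4.68 RPKM in FcgRIIB- libraries. The FcgRIIB+ library of pool 4 slightly exceeded the FcgRIIB- library of pool 2, so the groups overlapped. Bach2 differed by -0.54 on the log2(RPKM + 1) scale (SE 0.30), with adjusted p of 0.566 in limma and 0.302 with the block, a scale that understates the change of so low a gene, and between 149 and 687 reads lay behind each value. Foxo1, Foxp1 and Bach2 are also known from B cells, whose markers summed to 73.9 to 205.6 RPKM in FcgRIIB+ and 99.2 to 462.2 RPKM in FcgRIIB- libraries; the part of B cells in these values was not tested.

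In order of mean level per length the factors ran, in FcgRIIB+ libraries, Klf2, Tcf7, Id3, Foxo1, Lef1, Foxp1, Satb1, Eomes, Myb and Bach2. The middle 4 of that order lay between 13.1 and 14.1 RPKM and did not differ beyond their spread. In FcgRIIB- libraries the order was Klf2, Id3, Tcf7, Lef1, Foxo1, Foxp1, Satb1, Eomes, Myb and Bach2, and Id3 and Tcf7, at 133.3 ± 52.1 and 104.8 ± 27.1 RPKM, were within each other's spread, as were Eomes and Myb at 19.0 ± 2.72 and 18.3 ± 3.74 RPKM (SD, n = 4). In FcgRIIB+ libraries Eomes and Myb stood at 7.55 ± 1.599 and 4.31 ± 1.62 RPKM.

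**Figure D4:**
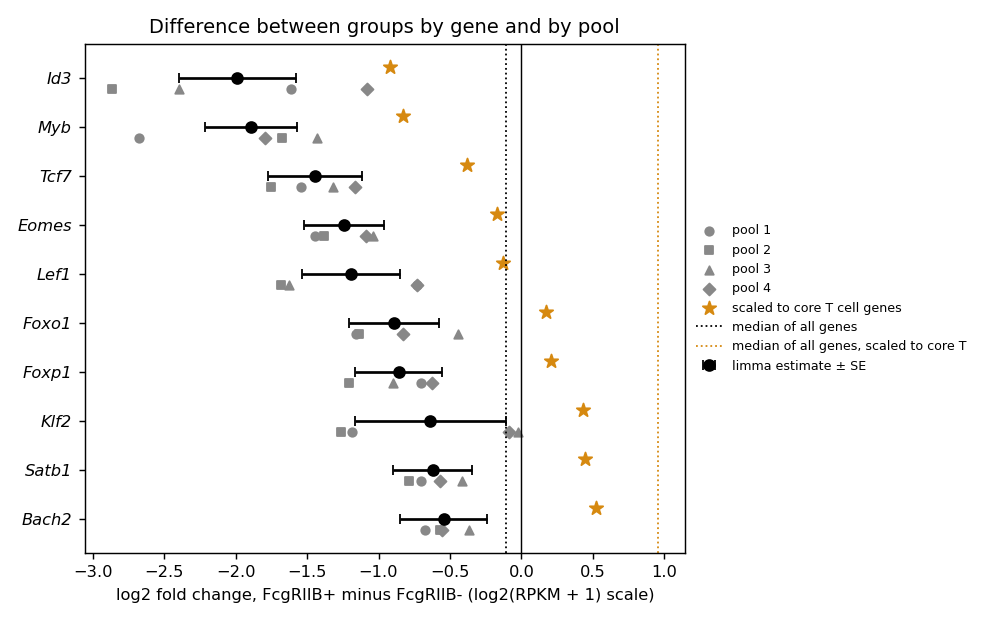
Log2 fold change of each factor, FcgRIIB+ minus FcgRIIB- on the log2(RPKM + 1) scale: black points are the limma estimate ± SE (n = 4 each), grey symbols the 4 pools, stars the estimate after scaling libraries by 16 core T cell genes, and dotted lines the median of all genes (-0.11, and 0.95 after that scaling). All estimates lie below 0 in the first scale, and 5 lie above 0 after scaling to core T cell genes.

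With each library set against its own core T cell genes, the fold changes of the factors, FcgRIIB+ minus FcgRIIB-, lay on both sides of 0. The core T cell mean on the log2 scale was 5.90 to 6.95 in FcgRIIB+ and 6.85 to 7.55 in FcgRIIB- libraries. After this scaling Id3 had the most negative fold change on the log2(RPKM + 1) scale, at -0.92, followed by Myb at -0.83 and Tcf7 at -0.38. These 3 lay lower in all 4 pools, as did 0.276% of tested genes. Limma called none of the 10 lower there (0 of 11946 genes called lower, 3 at unadjusted p under 0.05), and with the pool as a block it called Id3 alone of the 10 (SE 0.24, adjusted p = 0.0037; 0.1% of genes called lower). Myb just missed that threshold (adjusted p = 0.0578), and Tcf7 did not pass (0.141). Eomes, at -0.17, was lower in 2 of 4 pools, and Lef1, at -0.13, in 3 of 4. Fold changes of Bach2 (0.52), Satb1 (0.45), Klf2 (0.43), Foxp1 (0.21) and Foxo1 (0.17) lay above 0, with the FcgRIIB+ library the higher in 3 of 4 pools for each. None was called by limma with the block (adjusted p of 0.129 to 0.572), where 66.1% of all genes were called higher. For each of these 5 the exception was pool 1, whose FcgRIIB+ library had the highest core T cell mean of its group (6.95). The order of Bach2, Satb1 and Klf2 depends on the pseudocount. Before this scaling they stood at -0.54, -0.62 and -0.64, and with a pseudocount of 0.1 at -0.72, -0.65 and -0.64. The core T cell scaling was not run with that smaller pseudocount.

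**Figure D5:**
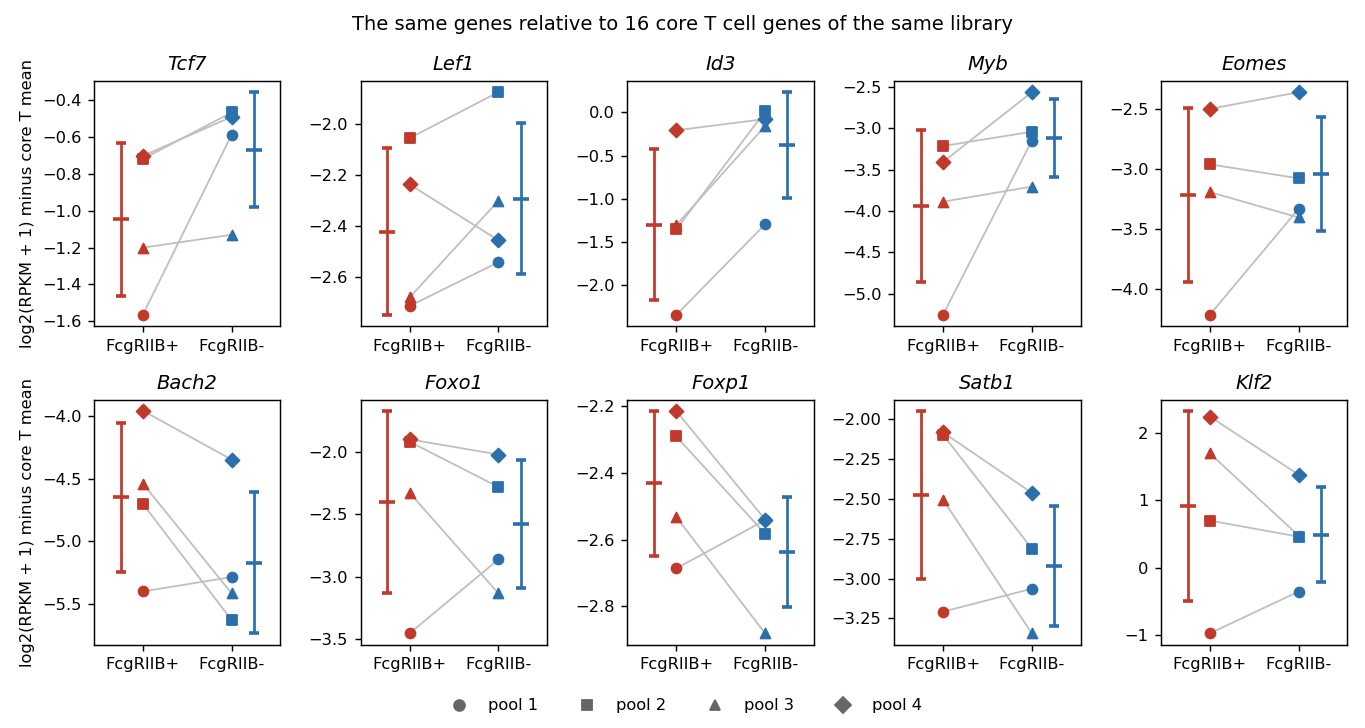
Level of each factor relative to its own library, as log2(RPKM + 1) minus the mean of 16 core T cell genes, FcgRIIB+ left and FcgRIIB- right, with lines joining the libraries of a pool and bars for the mean ± SD (n = 4). Id3, Myb and Tcf7 lie lower in the FcgRIIB+ library of all 4 pools; Bach2, Foxo1, Foxp1, Satb1 and Klf2 do so in pool 1 alone. The groups overlap for all 10.

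The pools split the libraries further, since pools 1 and 2 stood apart from pools 3 and 4 in depth and on the first principal component (48.8% of the variance; the groups parted on the second, with 30.1%). Within pools 1 and 2 alone limma called Id3, Myb, Tcf7 and Eomes lower (1.19% of genes lower, 7.32% higher). Within pools 3 and 4 alone it called Myb lower (adjusted p = 0.0395), against 0.0921% of genes lower and 2.29% higher. Whether these sets of pools differ was not tested.

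Over the 8 libraries, which share pools and depth classes, Pearson's r of log2(RPKM + 1) ranged from 0.03 to 0.97 over the 45 pairs of factors, with a median of 0.77. The closest pair was Myb and Eomes (0.97). For deviations from the group means, which leave out the difference between the groups, the median r was 0.22, with a range from -0.85 to 0.88. Outside the 10, the genes most like each factor over the 8 libraries by the same measure were Tspan32, Afp and Msrb2 for Id3 (r of 0.97 to 0.99), Fam174b, Kti12 and Grk6 for Myb (0.97 to 0.99) and Pacsin1, Ccdc61 and Dnajc1 for Eomes (0.97). For Tcf7 they were Mtfmt, Art4 and Nsg2 (0.98), and for Lef1 they were Hmces, Wdr18 and Qdpr (0.99). Nab1, Dnajc1 and Ccni lay nearest to Foxo1 (0.97 to 0.98), Aqp3, Pim2 and Def6 to Foxp1 (0.99), and Fam174b, Cxcr5 and Grk6 to Satb1 (0.96 to 0.98). Sel1l2, Mtif2 and B3glct lay nearest to Bach2 (0.96 to 0.98). The nearest genes to Klf2, Ppp1r14b, Chchd10 and Wtap (0.99), had means of 31.4, 12.6 and 12.0 RPKM in FcgRIIB+ and 44.6, 19.3 and 14.3 RPKM in FcgRIIB- libraries, and none was called. Limma also called Nsg2, Tspan32, Afp, Pacsin1, Aqp3 and Cxcr5 lower among these nearest genes. The nearest genes were picked by an r that holds the difference between the groups, for factors that all lay lower. A lower level in FcgRIIB+ libraries was thus built into the choice, and these calls are no separate result. Tspan32, a tetraspanin of blood cells, averaged 24.2 RPKM in FcgRIIB+ and 72.1 RPKM in FcgRIIB- libraries (adjusted p = 0.0316).

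Genes on which the factors act were described by lists. Among 9 genes of the FOXO1 pathway or known targets of FOXO1 or KLF2, no gene passed in limma (2 lower at unadjusted p under 0.05, voom 0), their median being -0.41 on the log2 scale. The block fit put 3 lower, among them Pik3ip1, an inhibitor of PI3 kinase, and S1pr1, the receptor for exit from lymphoid organs. Pik3ip1 was at 15.95 ± 2.15 RPKM in FcgRIIB+ and 32.05 ± 7.32 RPKM in FcgRIIB- libraries (-0.95 on the log2 scale, limma adjusted p = 0.145). The targets Il7r and Ccr7, named after their values were seen, were at 73.6 and 210.1 RPKM in FcgRIIB+ and 96.4 and 298.9 RPKM in FcgRIIB- libraries and passed in neither fit.

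Of 11 surface and survival genes of memory and naive T cells, 2 fell in limma and 7 with the block, 10 lay below 0 and the median was -0.98. Common-sum scaling left 0 called, median-ratio scaling 1 and voom 1, which was Slamf6 under both. The pair called were Slamf6, a surface marker of stem-like cells, at 16.1 ± 5.07 RPKM in FcgRIIB+ and 66.5 ± 21.2 RPKM in FcgRIIB- libraries, and Cxcr5, a follicle homing receptor, at 5.34 ± 1.51 against 18.6 ± 9.63 RPKM. Limma put Slamf6 at -1.97 on the log2 scale (adjusted p = 0.0132) and Cxcr5 at -1.54 (0.0402). The call of Slamf6 was lost without the FcgRIIB- library of pool 3 (0.0655), and that of Cxcr5 held only without the FcgRIIB- library of pool 4 or the FcgRIIB+ library of pool 2 (0.0662 to 0.118 without any of the other 6). With core T cell scaling and the block 2 of the 11 were lower, Slamf6 at -0.90 (adjusted p = 0.00527) and Dapl1 at -1.15 (adjusted p = 0.00139), while Igfbp4 was higher at 1.57 (adjusted p = 0.00104). In that fit 66.1% of all tested genes were called higher and 0.1% lower, and the all-gene median was 0.95. Without that scaling Igfbp4 stood at 0.50 (limma adjusted p = 0.859, and 0.312 with the block). Dapl1 and Igfbp4 were picked with their values in view.

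Partners and relatives of the factors were described in the same way. Among 10 tested cofactors of TCF-1 and LEF-1 limma called Jup, a beta-catenin relative, higher and no gene lower, with a median of 0.23 (Aes, a corepressor, was also called lower with the block, adjusted p = 0.0328), and Ctnnb1, beta-catenin itself, stood at 19.6 ± 7.48 RPKM in FcgRIIB+ and 16.4 ± 5.64 RPKM in FcgRIIB- libraries (SD, n = 4 each; chosen with its values in view). Jup averaged 9.74 RPKM in FcgRIIB+ and 1.31 RPKM in FcgRIIB- libraries (limma adjusted p = 0.0244), and its call was lost after common-sum scaling (0.0749) and without the FcgRIIB- library of pool 1, 2 or 3 or the FcgRIIB+ library of pool 1 or 2 (0.069 to 0.0908). Of 6 E proteins and other Id proteins none was called in limma (2 higher at unadjusted p under 0.05, voom 0). Id2, the relative of Id3 that is tied to effector cells, was at 848.4 ± 195.2 RPKM in FcgRIIB+ and 598.3 ± 194.4 RPKM in FcgRIIB- libraries (0.53 on the log2 scale, SE 0.44, limma adjusted p = 0.794; also chosen with its values in view). Id1 and Tcf4, the members with the smallest p, had log2 fold changes of 1.29 and 0.83, and the block fit put Id1 alone of the 6 higher (adjusted p = 0.00823). Of 16 relatives from the factors' own families 13 were in the table and 11 were tested; none was called in limma (1 higher at unadjusted p under 0.05, 1 with voom; median -0.09), with Tcf7l2 at 1.66 and Klf3 at -0.57. With the block 2 were higher, Tcf7l2 (adjusted p = 0.00398) and Klf4 (0.0465). Jup, Tcf7l2, Id1, Id2, Tcf4 and Klf4 had higher means in the group with more dendritic cell and macrophage transcripts. The part of those cells in them was not tested.

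Of 9 regulators of effector cells, with a median of -0.15, limma called none (1 higher at unadjusted p under 0.05, voom 0), and with the block Stat4 alone was lower. Zeb2 and Tbx21, factors that drive terminal effector cells, had log2 fold changes of 1.06 (SE 0.48, limma adjusted p = 0.409) and -0.63 (SE 0.35, 0.554). Zeb2 averaged 6.70 RPKM in FcgRIIB+ libraries, which held more dendritic cell and macrophage transcripts, and 2.32 RPKM in FcgRIIB- libraries. The part of those cells in Zeb2 was not tested. Among 9 other transcription factors of the T lineage 1 fell, Tox, at 3.62 ± 1.93 RPKM in FcgRIIB+ and 12.6 ± 4.805 RPKM in FcgRIIB- libraries (a log2 difference of -1.58, limma adjusted p = 0.043), and the median was -0.75. With the block 3 were lower: Tox, Ets1 (adjusted p = 0.0207) and Gata3 (0.0424). No gene of this list was called with voom or after common-sum or median-ratio scaling, where Tox had adjusted p of 0.0617, 0.226 and 0.0641. With 1 library left out the call of Tox held only without the FcgRIIB- library of pool 4 or the FcgRIIB+ library of pool 1 (0.0693 to 0.155 without any of the other 6). Bcl11b, a factor of T cell identity picked with its values in view, had a log2 fold change of -0.79 and did not pass.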

How the data were processed

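Poly(A) RNA of 8 sorted mouse T cell libraries was amplified by SMART-seq v4 and sequenced as NexteraXT libraries, per the labels' protocols. The authors deposited 1 table of RPKM values per gene with exon lengths, per the file headers. The submitters' processing notes list TopHat2 and mm9. The counting method and its use of strand are not given in the sources used here. Antisense genes share exon bases with Lef1, Myb, Eomes, Bach2, Foxo1 and Satb1 in GENCODE M21 (another build, used for names), and their reads cannot be told apart without strand. Genes on the same strand share exon bases with Foxp1 (300 and 135 bases) and Satb1 (156 bases), and strand would not part those reads.

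Of the Entrez IDs 13187 matched GRCm38.p6 and 21 symbols turned into dates were restored. RPKM times exon length fell on whole reads, within 0.1 reads, for at least 99.9% of low values per library, which gave the depths. Every gene of the table reached 3 RPM in at least 4 libraries. Replicate spread sets the errors, which cover these pools only.

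The test was limma 3.58.1 (R 4.3.3, eBayes with a trend) on log2(RPKM + 1), group as the only term, two-sided, over the 11946 genes that reached 1 RPKM in 4 or more libraries, with Benjamini-Hochberg adjustment and a threshold of 0.05. All 10 factors passed this filter. A replicate number stands for 1 pool of spleens shared by both groups, per the series design text, so a fit with the pool as a block is given where it changes a call. Deviations from group means correlated at 0.41 to 0.70 within pools, and correlations between unlike pools were not computed. The steps were tested on simulated data. The factors, the 7 pathway lists and the 10 marker lists were chosen with earlier results of these data known. All factors and all genes that define the sorted cells are named. From other lists up to 4 called members were named, or 2 with the smallest p, the 2 most abundant dendritic cell, macrophage and B cell markers, and the 3 genes with the highest Pearson r with each factor. Other genes named outside that rule are marked. Alternatives covered scaling, pseudocount, filter, library weights, pools, libraries left out and, added after seeing the data, voom on the recovered reads. 1 gene of the FOXO1 list is not reported here.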

Additional observations from a re-analysis of the deposited data

Results flagged for a closer look

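Foxp1 in the FcgRIIB+ library of pool 1, at 18.2 RPKM, lay apart from the other 3 FcgRIIB+ libraries, which were between 11.9 and 12.6 RPKM. The gap to its nearest neighbour was 0.889 of the range of the group, above the 95% critical value of Dixon's test for 4 samples. It was the only such value among 20 groups of 4 libraries (10 factors in 2 groups), and chance flags about 1 group in 20. Without that library the log2 fold change of Foxp1 was -0.99 (limma adjusted p = 0.18).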

How the results depend on the processing

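Limma called 4 of the 10 factors lower, 7 with the pool as a replicate block, 2 after common-sum or median-ratio scaling (Tcf7 and Eomes lost), 4 by quantiles (Eomes lost, Lef1 gained), 6 with library weights (Lef1 and Foxp1 gained), 0 after core T cell scaling, 1 with that scaling and the block, 1 in replicates 3 and 4 only, and 1 to 4 with single libraries left out. The block added Lef1, Foxo1 and Foxp1 and changed no other call among the factors. None was called higher under any of these settings. Over all genes, 32 were lower and 362 higher, against 460 and 863 with the replicate block, 8 and 220 after common-sum scaling, 19 lower after median ratios, 59 lower by quantiles, 0 and 1401 after core T cell scaling, 12 and 7891 with that scaling and the block, 637 and 785 with library weights, and 142 and 875 in replicates 1 and 2. In replicates 3 and 4 alone 11 were lower. With single libraries left out 5 to 45 were lower and 178 to 503 higher. The factors' direction reversed only with core T cell scaling, with or without the block: Bach2 0.52, Foxo1 0.17, Foxp1 0.21, Satb1 0.45 and Klf2 0.43, as the scaling raises all genes of FcgRIIB+ libraries. A pseudocount of 0.1, no filter, and voom on recovered reads left each factor on its side of the threshold. The cause of the other changes was not tested. The lowest read count behind a factor's value was 108.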
